A study of Mus musculus with 6 samples.

Results

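The genes described here set the passage from G1 into S phase: the D-type cyclin genes Ccnd1, Ccnd2 and Ccnd3, their kinase genes Cdk4 and Cdk6, and the inhibitor genes Cdkn1b, Cdkn2a, Cdkn2b, Cdkn2c and Cdkn2d. Their members on the array were all probe sets that the platform annotation gives to one of these symbols alone, which made 25 of 45101 probe sets, for 10 of 18193 named genes. The cells were AtT-20, an established mouse corticotroph tumour line. The siDNMT1 group received 20 nM of an siRNA against Dnmt1, the maintenance DNA methyltransferase, repeatedly until day 8. The siNT group received 20 nM of a non-targeting siRNA on the same schedule, so both groups share the transfections and carry no other stated alteration. The labels number 3 independent repeats, each with 1 array per group, and they do not give the siRNA sequences.

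D-type cyclins are the growth-responsive partners of Cdk4 and Cdk6, and the active kinase phosphorylates the retinoblastoma protein and its relatives, which frees E2F factors to transcribe S-phase genes. The INK4 proteins, encoded by Cdkn2a, Cdkn2b, Cdkn2c and Cdkn2d, bind the kinases and keep cyclin D away, while p27, encoded by Cdkn1b, mainly inhibits Cdk2 complexes and is held by cyclin D complexes. In the pituitary, loss of Cdkn1b or Cdkn2c in mice leads to tumours of the intermediate lobe, and Cdkn2a and Cdkn2b are known as genes that many tumours silence by promoter methylation. Cdkn2a also encodes p19ARF, read from another first exon in another frame.

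The promoters are shown because the enzyme that was reduced acts on CpG sites. A further reason was that neighbouring or interacting members differed in the sign of their mean difference, although Cdkn2a was too dim for a direction. Methylation itself was not measured. RefSeq promoter sequences on GRCm38.p6 were found for 8 members and 11 starts, and none was matched for Ccnd1 and Ccnd2. They are reference sequences of the mouse genome and not of AtT-20 cells. Each run below is the 250 bases before a start, 5′ to 3′ along the gene. In the first, capitals mark CACGTG, the palindromic E-box that proteins of the Myc family bind, and in the other 3 they mark CpG.
Cdk4 (chr10:127063285-127063534, plus strand): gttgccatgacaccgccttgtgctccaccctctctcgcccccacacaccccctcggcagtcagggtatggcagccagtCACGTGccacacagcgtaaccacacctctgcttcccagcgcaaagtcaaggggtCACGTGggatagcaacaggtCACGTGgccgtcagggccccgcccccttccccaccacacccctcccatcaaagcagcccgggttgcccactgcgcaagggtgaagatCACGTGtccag
Cdkn2b (chr4:89311033-89311282, minus strand): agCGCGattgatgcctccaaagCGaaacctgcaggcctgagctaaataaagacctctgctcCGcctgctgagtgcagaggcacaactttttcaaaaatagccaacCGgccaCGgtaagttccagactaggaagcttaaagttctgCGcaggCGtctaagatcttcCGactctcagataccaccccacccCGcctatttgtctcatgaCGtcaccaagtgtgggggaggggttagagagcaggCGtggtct
Cdkn2a, upstream start (chr4:89294620-89294869, minus strand): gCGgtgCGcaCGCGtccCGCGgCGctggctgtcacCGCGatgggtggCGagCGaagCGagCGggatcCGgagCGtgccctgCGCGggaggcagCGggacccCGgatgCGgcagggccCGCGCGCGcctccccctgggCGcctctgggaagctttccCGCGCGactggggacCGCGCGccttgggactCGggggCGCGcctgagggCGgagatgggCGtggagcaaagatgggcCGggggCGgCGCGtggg
Cdkn2a, downstream start (chr4:89282193-89282442, minus strand): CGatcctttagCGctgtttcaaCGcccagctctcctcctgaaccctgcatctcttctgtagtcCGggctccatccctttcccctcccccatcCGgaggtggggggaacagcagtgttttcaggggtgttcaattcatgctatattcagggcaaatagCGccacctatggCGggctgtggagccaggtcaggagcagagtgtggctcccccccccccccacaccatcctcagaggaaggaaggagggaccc

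The Cdk4 window held 4 copies of CACGTG, beginning 172, 118, 98 and 11 bases before the start. At least 1 copy was found in 6.02% of the 32851 windows in the table and at least 4 copies in 0.0213%. The cut of 4 was taken from the Cdk4 window itself, so this share is a description only. Among the member windows 2 of 11 held it, the other being that of Cdk6 with 1 copy. The Cdkn2b window held 12 CpG, against 40 and 7 at the upstream and downstream starts of its neighbour Cdkn2a. The next protein-coding gene beyond Cdkn2a is Mtap and that beyond Cdkn2b is Dmrta1. Over all windows the median was 6 CpG and the upper quartile 16, so 10 of the 11 member windows lay above the median and 5 above the upper quartile. Among the rest, Cdkn1b held 28, Cdkn2c 29 and 6 at its upstream and downstream starts, Cdk6 22, Cdkn2d 16, Cdk4 13, and Ccnd3 11 and 19. A further 3 motifs were searched on both strands, and overlaps between motifs were not removed. The cyclic AMP response element TGACGTCA was present in the Cdkn2b window alone (1.55% of all windows), the GC box GGGCGG in 7 of 11 (32.7%) and the E2F motif TTTNNCGC in 3 of 11 (4.28%). These matches are descriptions of letters and not measurements of binding.

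**Figure D1:**
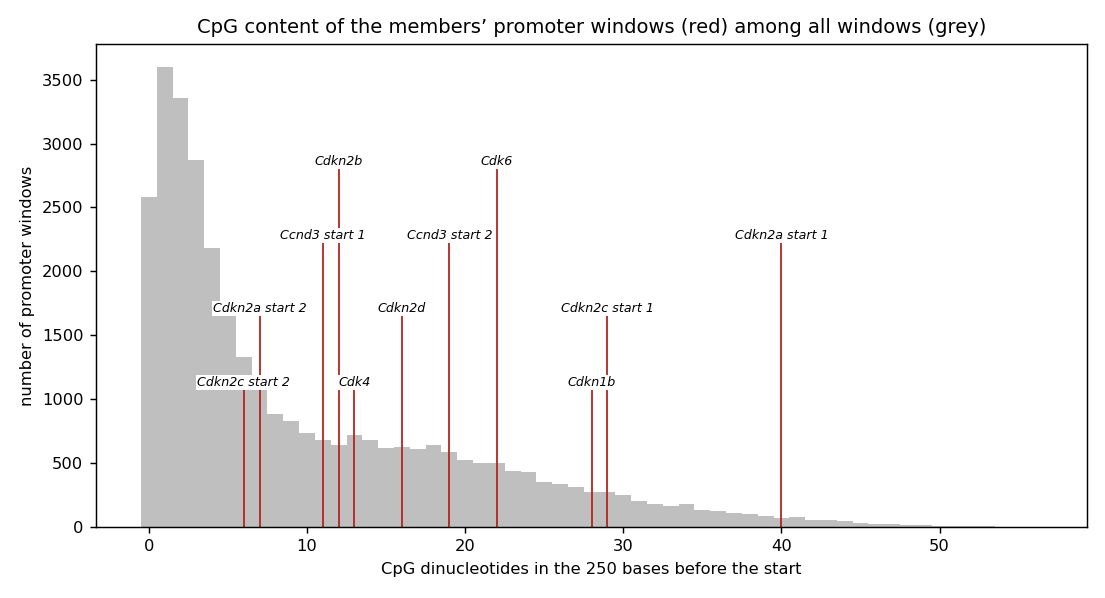
Number of CpG dinucleotides in the 250 bases before each start (x axis) and number of windows in the table (y axis, grey bars); red lines mark the 11 member windows, their height serving only to part the names. The upstream Cdkn2a start, with 40 CpG, lies far to the right of its neighbour Cdkn2b, with 12.

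Within repeats, all probe sets of Ccnd1 and Cdk4 and that of Cdkn2b had higher signals after siDNMT1. Ccnd2 had a lower signal on its brightest probe set but not on its second tested one, and Cdkn2a and Cdk6 were too dim for a direction. Cdkn1b, Cdkn2c and Cdkn2d lay close to their controls or differed in sign between repeats. No member passed the test. The RNA came from whole cultures, so fewer cells expressing a gene and less RNA per cell cannot be told apart. Signals below are scaled, that is, each array was brought to a common median, and differences are siDNMT1 minus siNT on the log2(scaled signal + 5.29) scale. Tests covered 27022 probe sets, those averaging at least 16.8 over the arrays, and 16 of the 25 member probe sets were among them, at least 1 for each gene. In limma 0 of these 16 were called at an adjusted p under 0.05, without the repeat number or with it as a block (the paired fit), against 0% and 0.0851% of all tested probe sets.

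Counts by direction are given beside those of the whole array, and the difference between them was not tested. Of the 16 tested member probe sets 8 were higher in 3 of 3 repeats, against 10.1% of all tested probe sets, and 2 were lower in 3 of 3, against 19.2%. The 8 were 3 for Ccnd1, 3 for Cdk4 and 1 each for Ccnd3 and Cdkn2b, so they share 4 genes, and 6 of the 8 come from Ccnd1 and Cdk4. With trimmed mean scaling 7 were higher, against 15.3% of all tested, and 2 lower, against 13.8%, and with quantile scaling 7 and 2, against 14.7% and 14.4%. In 2 member probe sets, of Cdk4 and Cdkn2b, every siDNMT1 array lay above every siNT array, as in 2.96% of all tested, and in 0 it lay below, as in 5.78%. This count of 2 was 4 with trimmed mean scaling, 4 with quantile scaling and 0 without scaling, where 5%, 4.81% and 1.13% of all tested probe sets met it. At an unadjusted p under 0.05 in the paired limma fit there were 7 higher (3 Ccnd1, 3 Cdk4 and Cdkn2b) and 0 lower, against 2.45% and 5.38% of all tested. Without the block there were 1 higher, for Ccnd1, and 0 lower, against 1.32% and 2.47%. The median difference over the 16 was 0.24 and that over all tested probe sets -0.06. With 1 probe set per gene, the brightest, 5 genes were higher and 5 lower and the median was 0.07. The higher include Cdk6 and the lower Cdkn2a, which passed the filter through a single group and are too dim for a direction. Cdkn2a is also 1 of the 2 probe sets lower in 3 of 3 repeats. The 7 probe sets with an unadjusted p under 0.05 in the paired limma fit kept it with trimmed mean scaling, with quantile scaling and without scaling.

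**Figure D2:**
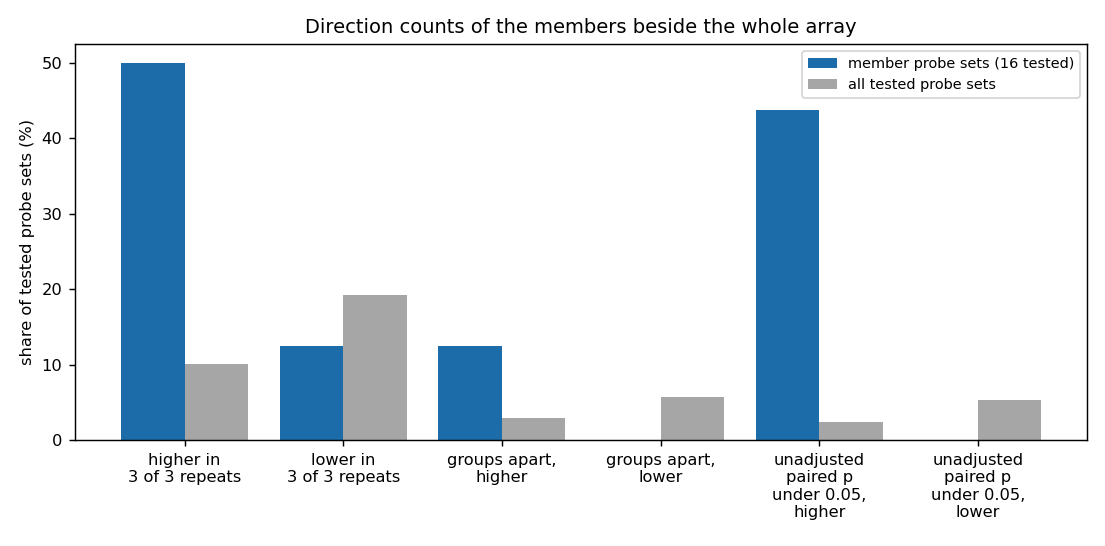
Share of tested probe sets (y axis, %) that meet each criterion (x axis), for the 16 tested member probe sets (blue) and all 27022 tested (grey); "groups apart" means that no array of 1 group reaches the other. Under the median scaling shown, the members exceed the array among the higher counts, 8 of 16 against 10.1% in 3 of 3 repeats. Ccnd1 and Cdk4 give 3 probe sets each. Without scaling, 0 of 16 had the groups apart and higher, against 1.13% of all tested.

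Cyclin D1 gave the largest difference of the 3 cyclins. On the brightest Ccnd1 probe set the scaled signals of repeats 1, 2 and 3 were 152, 245 and 306 after siDNMT1 and 89.7, 162 and 171 after siNT. The siDNMT1 array was above its own control in each repeat, but repeat 1 was the lowest in both groups, so the groups overlapped. The mean signal was 235 ± 77.6 against 141 ± 44.5 (SD, n = 3), and the siDNMT1 arrays held 167% ± 14.4 of their paired controls (SD, n = 3). The difference was 0.71 (SE 0.29, 95% interval 0.07 to 1.36), and 0.73, 0.58 and 0.82 by repeat. Its limma adjusted p was 1.00, and 0.177 when paired (paired SE 0.15), and over 23 alternatives the adjusted p ran from 0.124 to 1.00. The other 2 Ccnd1 probe sets differed by 0.51 (0.22, 0.79 and 0.52 by repeat) and 0.55 (0.97, 0.30 and 0.38 by repeat). All 3 probe sets gave the same sign in all 3 repeats, with sizes that varied between repeats in no common order. Without siNT array 1 the unpaired difference of the brightest was 0.43.

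Cyclin D2 had the opposite sign on its brightest probe set. Its scaled signals were 43.7, 32.2 and 65.5 after siDNMT1 and 65.9, 45.7 and 81.8 after siNT in repeats 1 to 3. Each siDNMT1 array was below its control, at 72.3% ± 7.02 of it (SD, n = 3), and the groups overlapped. The difference was -0.43 (SE 0.29, 95% interval -1.07 to 0.22; adjusted p in the paired limma fit 0.662). It was -0.21 without siDNMT1 array 2, -0.25 without siNT array 3 and -0.67 without siDNMT1 array 3, and -0.09 as the mean of both tested probe sets. The other tested Ccnd2 probe set, dimmer, differed by 0.24, with 0.37, -0.26 and 0.62 by repeat, so the gene's probe sets did not share a sign. A further 5 Ccnd2 probe sets lay below the filter, with mean signals of 14.2 or less in either group.

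Cyclin D3 differed little on its brightest probe set. The scaled signals were 123, 190 and 149 after siDNMT1 and 121, 145 and 128 after siNT, which overlap. The difference was 0.20 (SE 0.21, 95% interval -0.25 to 0.65), and in repeat 1 it was 0.02, which turned to -0.01 with trimmed mean and with quantile scaling. The unpaired difference was 0.046 without siDNMT1 array 2 and 0.35 without siDNMT1 array 1. The second probe set was close to the filter and scattered from -1.61 to 0.97 between repeats. The third, below the filter, read 8.39 ± 0.499 after siDNMT1 and 20.2 ± 5.46 after siNT (SD, n = 3) without overlap, and it was not tested.

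Cdk4, the kinase that D-type cyclins activate, was higher in every repeat on all 3 of its probe sets. On the brightest probe set the scaled signals were 1078, 1022 and 1107 after siDNMT1 and 887, 899 and 924 after siNT. Every siDNMT1 array was above every siNT array, and the spread within each group was small, 1069 ± 43.0 against 903 ± 18.7 (SD, n = 3). The difference was 0.24 (SE 0.13, 95% interval -0.05 to 0.54), a signal of 118% ± 4.08 of the paired controls (SD, n = 3). Its paired limma adjusted p was 0.618, and over 22 alternatives the difference stayed between 0.22 and 0.30 with adjusted p from 0.355 to 1.00. The suffix of this probe set marks possible cross-hybridisation. The other 2 Cdk4 probe sets differed by 0.35 (0.69, 0.16 and 0.21 by repeat) and 0.27 (0.45, 0.18 and 0.18 by repeat), with the largest value in repeat 1 on both and a wider spread between repeats than the brightest.

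Cdk6, the second cyclin D kinase, was near the limit of measurement. Its brightest probe set read 5.15, 24.97 and 29.9 after siDNMT1 and 17.0, 15.3 and 9.23 after siNT. It was lower in repeat 1 and higher in the other two, with a difference of 0.24 (SE 0.53, 95% interval -0.93 to 1.42), and it passed the filter through the siDNMT1 arrays alone. Its other 2 probe sets were below the filter, with group means of 5.28 to 7.94. Its difference was 0.79 without siDNMT1 array 1 and -0.08 without siDNMT1 array 3, and no direction can be read for Cdk6 at this signal.

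**Figure D3:**
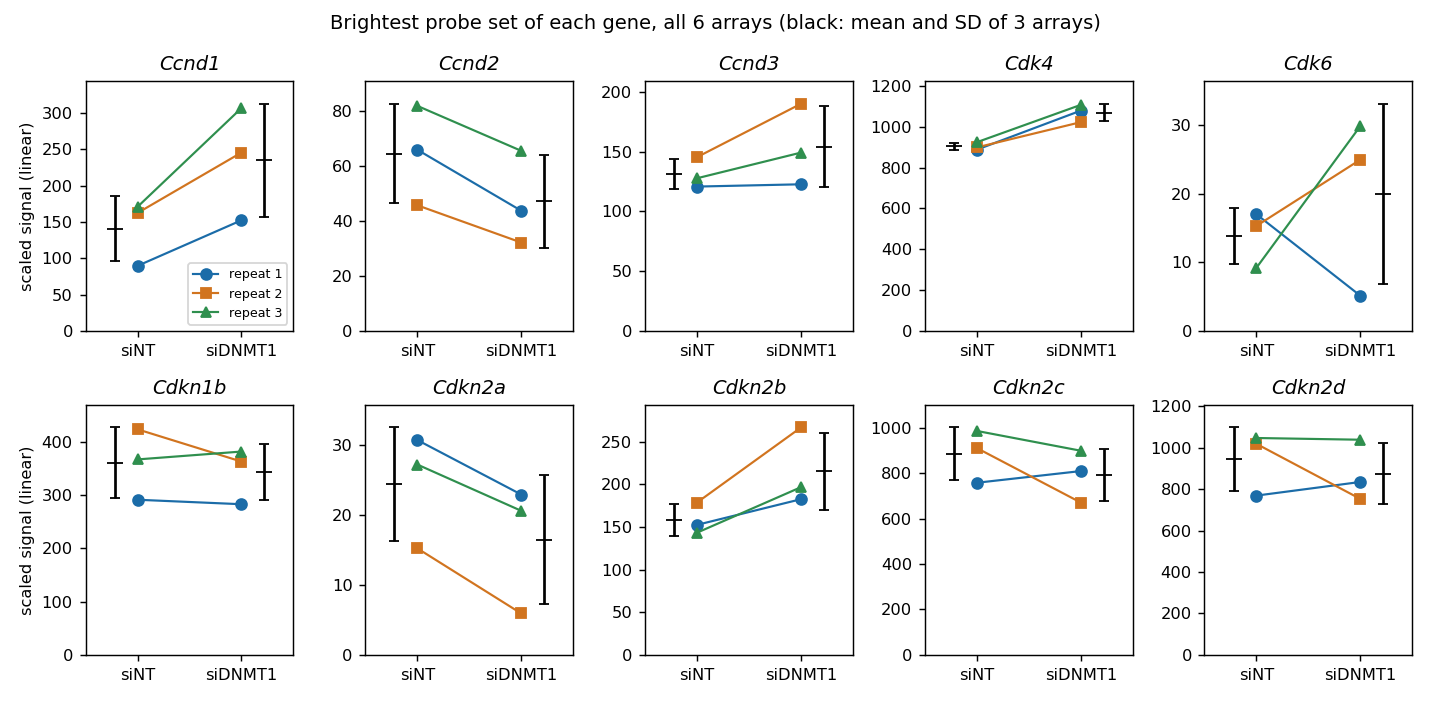
Scaled signal (y axis, linear from 0) of the brightest probe set of each of the 10 genes in the siNT and siDNMT1 arrays (x axis); lines join the arrays of a repeat and black marks give the mean and SD of 3 arrays. Lines for Ccnd1, Cdk4 and Cdkn2b go up in all 3 repeats and those for Ccnd2 and Cdkn2a go down, while Cdkn2c and Cdkn2d go up in repeat 1 and down in repeat 2.

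Among the INK4 inhibitors, Cdkn2b, encoding p15, was higher. Its only probe set read 183, 267 and 197 after siDNMT1 and 153, 179 and 143 after siNT in repeats 1 to 3. The groups did not overlap, although the lowest siDNMT1 array and the highest siNT array were close. The mean was 215 ± 45.1 against 158 ± 18.4 (SD, n = 3), and the difference 0.42 (SE 0.20, 95% interval -0.02 to 0.85), with 0.25, 0.56 and 0.44 by repeat. The paired limma adjusted p was 0.559 (0.449 to 1.00 over 23 alternatives). Without siDNMT1 array 2, the highest, the unpaired difference was 0.26.

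Cdkn2a, its neighbour, had lower and dim signals. They were 23.0, 5.94 and 20.6 after siDNMT1 and 30.8, 15.3 and 27.3 after siNT. Each siDNMT1 array was below its control, at 63.1% ± 20.9 of it (SD, n = 3), while the groups overlapped. The difference was -0.52 (SE 0.46, 95% interval -1.52 to 0.49), -0.33 with the higher pseudocount and -0.09 without siDNMT1 array 2. The single probe set passed the filter through the siNT arrays alone, and whether it reads the p16INK4a or the p19ARF transcript was not tested.

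Cdkn2c and Cdkn2d, encoding p18 and p19INK4d, were bright and moved alike from repeat to repeat. Cdkn2c read 809, 671 and 899 after siDNMT1 and 758, 911 and 986 after siNT. Cdkn2d read 835, 753 and 1039 after siDNMT1 and 769, 1019 and 1047 after siNT. By repeat the differences were 0.09, -0.44 and -0.13 for Cdkn2c and 0.12, -0.43 and -0.01 for Cdkn2d, so both were below their controls mainly in repeat 2. The means were -0.16 (SE 0.17, 95% interval -0.53 to 0.21) and -0.11 (SE 0.18, 95% interval -0.50 to 0.28). Without siDNMT1 array 2 they were -0.04 and -0.0074, and without siNT array 1 -0.27 and -0.25. With trimmed mean scaling they were -0.10 and -0.05. Of the 3 brightest proliferation markers, Cdt1 had the same order by repeat (0.03, -0.31 and -0.06), as did Mcm7 (0.22, -0.06 and 0.04). Pcna did not (-0.09, -0.09 and -0.10). The order was thus not particular to Cdkn2c and Cdkn2d. Repeat 2 was also the repeat with the least remaining Dnmt1 signal, 20.2% of control against 39.6% and 48.6%. It had the largest difference of Cdkn2b, while Cdkn2a was too dim for its repeats to be ranked. Under median scaling repeat 2 had the smallest differences of the brightest Ccnd1 and Cdk4 probe sets (0.58 and 0.18). With trimmed mean scaling repeat 1 was the smallest for both (0.704 and 0.251), and with quantile scaling for Cdk4 alone (0.245). Of the other Ccnd1 probe sets, the second was largest in repeat 2 (0.79) and the third smallest (0.30). Over all tested probe sets the median difference of repeat 2 was -0.11. With 3 repeats, a relation to the depth of knockdown was not tested.

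Cdkn1b, encoding p27, differed least. Its brightest probe set read 283, 363 and 382 after siDNMT1 and 291, 423 and 367 after siNT, a difference of -0.07 (SE 0.19, 95% interval -0.49 to 0.35) with -0.04, -0.22 and 0.06 by repeat. The sign turned with quantile scaling and without siDNMT1 array 1 (0.06) or siNT array 2 (0.05), and the interval does not show that the signal stayed the same. Its other probe set was below the filter at 6.70 ± 4.83 and 9.01 ± 4.24 (SD, n = 3).

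**Figure D4:**
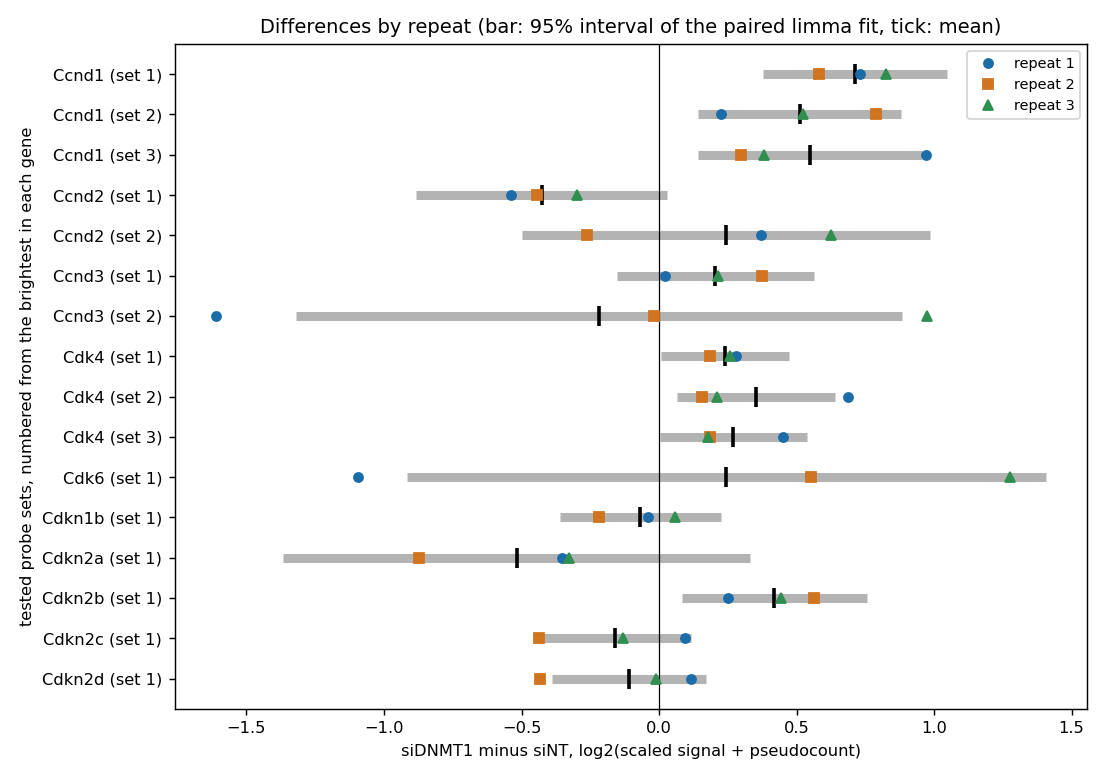
Difference of siDNMT1 minus siNT on the log2(scaled signal + pseudocount) scale (x axis) for the 16 tested member probe sets (y axis), numbered from the brightest in each gene; symbols are single repeats, black ticks their mean and grey bars the 95% interval of the paired limma fit before adjustment. All symbols of the 3 Ccnd1 and 3 Cdk4 probe sets and of Cdkn2b lie right of 0, and Cdk6 and the second Ccnd3 probe set scatter to both sides.

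A ratio of 2 members within an array does not carry the array's scale factor, apart from the pseudocount. The 4 ratios with values given here were chosen after the values above had been seen and are descriptions. The log2 ratio of Ccnd1 over Ccnd2 was 1.68, 2.74 and 2.14 after siDNMT1 and 0.42, 1.72 and 1.01 after siNT. It was higher by 1.27, 1.02 and 1.12 in repeats 1 to 3, a mean of 1.14 ± 0.122 (SD, n = 3), and by 1.14 to 1.19 under the other scalings. Its groups overlapped, with 1.68 the lowest after siDNMT1 and 1.72 the highest after siNT. With the second tested Ccnd2 probe set in place of the brightest the ratio was higher by 0.36, 0.84 and 0.20, also with overlap. That mean was 0.47 ± 0.334 (SD, n = 3), so the size of the ratio difference depends on the Ccnd2 probe set. The log2 ratio of Cdk4 over Cdkn2c, a kinase over an inhibitor that binds it, was higher by 0.19, 0.62 and 0.39, and its groups did not overlap. Cdkn2b over Cdkn2c was higher by 0.16, 1.00 and 0.58, also without overlap, and in both of these repeat 2 had the largest value. With Cdkn2d in place of Cdkn2c, the signals given above make the groups overlap for Cdk4 and for Cdkn2b. The separation therefore depends on the inhibitor chosen. Cdkn2a was too dim for a ratio to be read.

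Of the wider list of 66 G1 and Rb pathway genes, 60 had a tested probe set. Of these 28 were higher and 32 lower (40.8% were higher over all tested probe sets). Their median difference was -0.02 (-0.06 over all tested probe sets). In limma 0 were called at an adjusted p under 0.05 in either direction, with or without the block. At an unadjusted p under 0.05 there were 1 higher (Myc) and 0 lower without the block, against 1.32% and 2.47% of all tested, and 1 higher (Myc) and 2 lower (Akt1 and Ccne2) with it, against 2.45% and 5.38%. These counts are close to or below the array's own. Myc, named first as the gene with the smallest unadjusted p, encodes a transcription factor that promotes entry into the cell cycle. Its scaled signals in repeats 1, 2 and 3 were 94.4, 91.9 and 114 after siDNMT1 and 66.5, 61.7 and 68.5 after siNT. Every siDNMT1 array was above every siNT array, with a difference of 0.57 (SE 0.20; adjusted p in the paired limma fit 0.462). Of the other genes with the smallest unadjusted p, cyclin E2 (Ccne2) differed by -0.47, with -1.12 in repeat 2 against -0.20 and -0.10 in repeats 1 and 3. Cdk2, the kinase partner of cyclin E, differed by 0.22 (SE 0.19) and Cks1b, a cofactor in the degradation of p27, by 0.18 (SE 0.15). Skp1, a core subunit of the ubiquitin ligases that degrade cyclin E and p27, differed by -0.21 (SE 0.17). Fbxw7, which targets cyclin E for degradation, differed by -0.35 (SE 0.26). The kinases Akt1 and Cdk8 differed by -0.36 and -0.33, lower in all 3 repeats, as were 19.2% of all tested probe sets.

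The knockdown and the identity of the cells were checked on the same arrays. Dnmt1 signal was 219 ± 79.6 after siDNMT1 and 620 ± 80.4 after siNT (SD, n = 3), a difference of -1.54 (SE 0.24; limma adjusted p 0.151, and 0.0211 in the paired fit, which was 0.0551 with trimmed mean and 0.0532 with quantile scaling). The dimmer Dnmt1 probe sets differed by -1.81 and -1.75 (limma adjusted p 0.151 for both, and 0.0141 and 0.0197 in the paired fit). Pomc, the hormone precursor of corticotrophs, was bright after siDNMT1 and siNT (means of 8443 and 9229), as were Cpe (4448 and 4674) and Tbx19 (1528 and 1504). Of the 11 listed corticotroph genes 8 were tested, 4 higher and 4 lower, with summed signals of 12348 to 18420 against 14476 to 18616. Pomc and Crhr1 (named after its values were seen) were lower in all 3 repeats, as were 19.2% of all tested probe sets. Avpr1b and Isl1 lay below the filter. Of the marker lists, 5 of 6 tested fibroblast genes were higher and 1 lower, with a summed signal of 187 to 243 after siDNMT1 and 152 to 193 after siNT, and Col3a1, Pdgfrb and Thy1 below the filter. Pdgfra and Lum averaged below the filter after siNT (13.1 and 15.7) and passed it through the siDNMT1 arrays (34.3 and 22.1). In the list of other pituitary lineages, Prl passed through the siNT arrays (30.1, against 13.8 after siDNMT1). The other pituitary lineages had 1 of 6 tested genes higher (191 to 287 against 214 to 325), the immune list 2 of 4 (239 to 260 against 209 to 321) and the endothelial list 2 of 2 (69.0 to 75.6 against 49.5 to 77.4). Of the proliferation markers 8 of 21 were higher and 13 lower, with summed signals of 24588 to 27154 against 24764 to 27812. Over all tested probe sets 40.8% were higher, a share to set beside each of these lists. No gene of these lists was called, and their part in the member values was not tested.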

How the data were processed

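All 6 arrays were used, 3 per group, grouped and numbered by the labels. The authors deposited 1 linear intensity per probe set and array, made with GCOS per the submitters' processing notes. For its version and settings the sources used here give nothing. Each array was scaled to a common median, since 2% trimmed means differed by 99.8%. A pseudocount of 5.29 (20th percentile) was added before log2, which understates differences of dim probe sets. Probe sets with a mean scaled signal of at least 16.8 (40th percentile) were tested, 27022 of 45101. The limma 3.58.1 fit in R 4.3.3 (lmFit, eBayes with trend, two-sided, Benjamini-Hochberg over all tested, threshold 0.05) had no block. The paired fit added the repeat number, because same-numbered arrays deviated together (correlations 0.173, 0.231 and 0.257). The number of arrays limits the precision. The scripts were tested on simulated data. All members were named, the 8 pathway genes with the smallest unadjusted p and up to 3 of the brightest genes of each marker list. Marker genes that passed the filter through a single group were named after their values were seen. Members and lists were chosen with earlier results of these data known.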

Additional observations from a re-analysis of the deposited data

How the results depend on the processing

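The 22 alternatives covered scaling, pseudocount, filter, probe set choice, left-out arrays or repeats and the replicate block. Member calls and pathway calls were 0 under each. Calls over all tested probe sets, 0 without the block, numbered 1 with trimmed mean scaling, 1 with quantile scaling, 2 without scaling, 1 with the 60th percentile filter, 1 without cross-hybridising probe sets and 0 to 4 without single arrays. With the replicate block (paired fit) they numbered 23, 3 with trimmed mean scaling, 4 with quantile scaling, and 41 to 266 without a repeat. The block changed no member call. Dnmt1 passed with the block at -1.54, but not with the block and trimmed mean (adjusted p 0.0551) or quantile scaling (0.0532). It also passed without siDNMT1 array 3 and no block (limma adjusted p 0.0432). With the block and a repeat left out, the limma adjusted p was 0.0016 without repeat 1, and the lowest was 9.85e-15. Those fits rest on few arrays, so their p-values should not be read as stronger evidence. The Dnmt1 difference was -1.79 to -1.26 without single arrays and, with the block, -1.79 to -1.17 without a repeat (-1.65 without repeat 1). The member median of 0.24 was 0.29 with trimmed mean scaling (0.29 with the block too), 0.19 with the higher pseudocount, 0.090 without the filter, 0.13 to 0.29 without single arrays and 0.13 to 0.20 in the block without a repeat.

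The sign turned for Cdkn1b with quantile scaling (0.0017, with and without the block), without single arrays (-0.21 to 0.061) and in the block without repeat 2 (0.0073). It also turned for Cdk6 without single arrays (-0.083 to 0.79) and in the block without a repeat (-0.27 to 0.91). Cdkn2d turned in the block without repeat 2 (0.053), and Ccnd3 as the mean of its probe sets (-0.0072). Alternatives for the counts by direction were added after seeing the data. Member probe sets with groups apart and higher numbered 4 with trimmed mean scaling, 4 with quantile scaling, 0 without scaling and 5 to 6 without a repeat, where 9.22% to 13.4% of all tested probe sets met this. Those lower in every repeat numbered 2 to 4 without a repeat, against 29.3% to 36.2% of all tested. The cause was not tested. Dim probe sets, those of Cdk6 and Cdkn2a among them, limit what can be read.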
